A study of Homo sapiens with 10 samples.

Results

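The genes described here are 35 human genes of glucose use: the 18 enzymes that carry glucose to lactate, the 3 enzymes that set the level of fructose 2,6-bisphosphate, 4 sugar carriers, 2 lactate carriers, 3 genes at the entry of pyruvate into mitochondria, and HIF1A with 4 genes known as its targets. The list was set by gene function, and its rule uses no measured value. Earlier results of these data were known when the list was chosen. It was drawn from 36591 human genes in the count table, and 34 of the 35 had enough reads to be tested among 15455 human genes. The cells were human microglia made from the human embryonic stem cell line H9, which were transplanted into mouse brain at postnatal day 4 and sorted back out at 6 months as CD11b+, human CD45+ cells. All hosts lacked Rag2 (Rag2KO) and carried human CSF1 in place of the mouse gene (hCSF1KI), which human microglia need to survive there. The 5 hosts labelled AppKI, called AppHu by the study, carried a human form of amyloid-β in App and no disease mutation. The 5 AppSAA hosts had an App allele with the same humanising substitutions and, in addition, disease mutations, and they developed plaques. Each library came from 1 mouse, all cells derived from 1 donor line, and the study used mice of both sexes in each group. The sexes were not split alike in both groups, and the labels give no sex for a single library. An effect of sex was not tested and is not told apart in these values. The comparison asks which of these genes differ in human microglia between a brain with amyloid-β pathology and one without.

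Glucose enters a cell through carriers of the SLC2A (GLUT) family, is trapped by hexokinase, is committed to glycolysis by phosphofructokinase and leaves as pyruvate or, after reduction, as lactate through carriers of the SLC16A (MCT) family. Pyruvate dehydrogenase feeds pyruvate to mitochondria, and its kinases (PDK) close that gate. The transcription factor HIF-1, whose α subunit is encoded by HIF1A, is stabilised when oxygen is low, or in myeloid cells on activation, and switches on many of these genes through DNA sites with the core ACGTG.

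The libraries held 25040739 to 39641854 counts each, of which 3.12% to 4.97% in AppHu and 2.12% to 3.85% in AppSAA fell on mouse genes. P2RY12, a defining microglia gene, led the microglia markers, whose summed level was 37428 to 42165 CPM in AppHu, CPM being counts scaled to a common total of human counts, and 32388 to 40287 CPM in AppSAA. Of its 10 genes 9 were lower in AppSAA, 0 past the edgeR test or DESeq2 and 3 at an unadjusted p under 0.05. Of the lists for other cell types, most defining genes were at or near 0 in every library: GFAP, AQP4, ALDH1L1 and GJA1 of astrocytes, MOG, MAG, MOBP and OLIG2 of oligodendrocytes, CLDN5, CDH5 and VWF of endothelial cells, SNAP25, STMN2 and SLC17A7 of neurons, and HBA1, HBA2 and HBB of red blood cells. The remaining genes of these lists were not all low. SLC1A3, a glutamate carrier that made up 99.98% of the astrocyte list, was 333 to 457 CPM in AppHu and 519 to 576 CPM in AppSAA without overlap (log2 fold change 0.45, adjusted p = 0.0548 in edgeR and under 0.05 in DESeq2). MAP2 of the neuron list, at 0.48 to 2.20 CPM in AppHu and 2.43 to 4.27 CPM in AppSAA, did not overlap either (log2 fold change 1.21, adjusted p = 0.230 in edgeR and 0.0369 in DESeq2), while MBP (38.9 to 62.5 and 36.7 to 77.3 CPM) and PECAM1 (103 to 159 and 108 to 119 CPM) did. The monocyte list summed to 14.1 to 17.9 CPM in AppHu and 16.3 to 35.9 CPM in AppSAA, with LYZ at 12.2 to 15.4 and 12.8 to 24.6 CPM. S100A8 of that list had a median of 0.67 CPM in AppHu and 1.03 CPM in AppSAA, where its highest library reached 15.7 CPM, and its log2 fold change of 2.72 (adjusted p = 0.308, edgeR) was as low as 0.64 among the alternative fits. The lymphocyte list summed to 3.06 to 5.94 and 3.18 to 3.58 CPM. ALAS2 of the red blood cell list, at 0.828 to 1.04 CPM in AppHu and 0.608 to 0.827 CPM in AppSAA, did not overlap (adjusted p = 0.733, edgeR). Of 6 markers of CNS-associated macrophages 5 were lower in AppSAA (summed level 1712 to 2289 CPM in AppHu, 1120 to 1713 CPM in AppSAA), 0 of them past the edgeR test, 2 at an unadjusted p under 0.05 and 1 called by DESeq2. The called gene was MRC1, which made up 62.6% of the list. Its groups did not overlap, at 1130 to 1329 CPM in AppHu and 701 to 1116 CPM in AppSAA (adjusted p = 0.0364, DESeq2). All 25 immediate early genes, which tissue dissociation and stimulation induce, were higher in AppSAA, 2 of them past the edgeR test, 3 called by DESeq2 and 16 at an unadjusted p under 0.05. Of 10 heat shock genes 6 were higher, 0 past the edgeR test or DESeq2 and 3 at an unadjusted p under 0.05. The part of SLC1A3, MAP2, the macrophage markers and the immediate early genes in the results below was not tested. Among the 34 members 2 libraries stood apart: AppSAA 5 deviated most from its group mean of any library for 9 of them, and AppHu 7 did so for 8 and was the lowest of all 10 libraries for 11. AppHu 6 was the lowest of its group for 6 members, HK1, PFKL, ENO2, PFKFB3, SLC16A3 and PDK1.

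Of the 34 members 0 passed an adjusted p of 0.05 in the quasi-likelihood test of edgeR, with p-values adjusted over all tested genes by the method of Benjamini and Hochberg. Over all genes 12 of 15455 did, or 0.0776%. At an unadjusted p under 0.05 stood 3 members, against 9.8% of all genes: the glucose carrier SLC2A3 and the phosphofructokinase PFKP, both higher in AppSAA, and the glucose carrier SLC2A1, lower. DESeq2 on the same genes called 1 member, SLC2A3, and 1.39% of all genes, and limma-voom called 0 members and 0.336% of all genes. The same gene was the only 1 of the 34 tested whose CPM did not overlap between groups, as was true of 2.49% of all genes. The log2 fold changes of the members, AppSAA over AppHu, had a median of 0.010, with 18 above and 16 below 0. Their absolute values had a median of 0.080, against 0.119 over all genes tested. For 22 of the 34 the 95% interval of the fold change lay within 0.5 of 0 on the log2 scale, which bounds a change in either direction, and for 19 the fold change itself was within 0.1 of 0. In RNA from bulk sorted cells, a change in the level per cell and a change in the share of cells that make a transcript cannot be told apart.

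**Figure D1:**
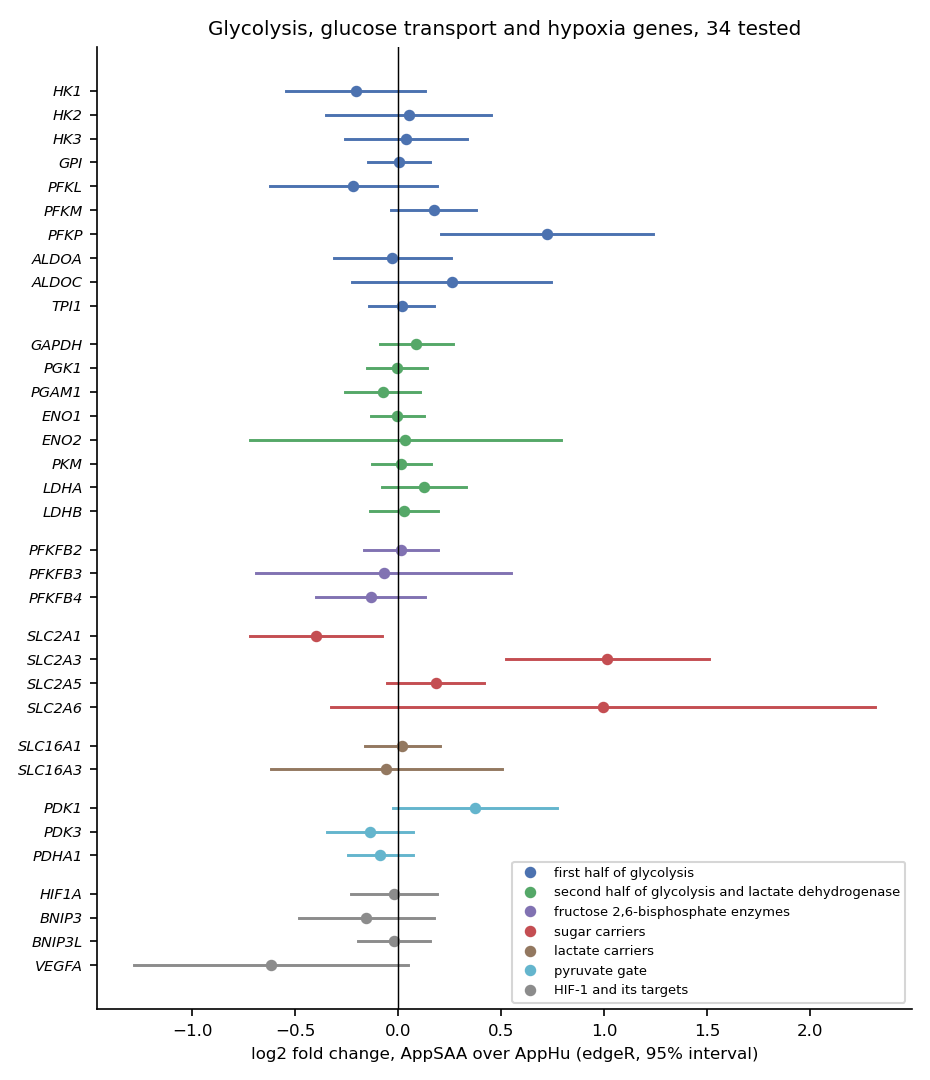
Log2 fold change, AppSAA over AppHu, of each of the 34 tested genes (points) with its 95% interval from edgeR (lines), coloured by role, 5 libraries per group. Most enzymes of the pathway sit close to 0 with narrow intervals, and the sugar carriers hold the 2 largest values, SLC2A3 at 1.02 and SLC2A6 at 1.00, the second with an interval from -0.32 to 2.32.

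Of the 4 sugar carriers 0 passed the edgeR test. SLC2A3 had the only values that did not overlap between groups, with all AppSAA libraries above AppHu, and SLC2A1, SLC2A5 and SLC2A6 overlapped. SLC2A3 encodes GLUT3, a high-affinity glucose carrier. It lies on the minus strand at chr12:7919230-8019007 (GRCh38, GENCODE 44) beside a close copy, SLC2A14, which encodes GLUT14. The coding sequences of the 2 genes differ at 48 of 1488 aligned bases, and 7.03% of the windows of 101 bases, the read length, along the SLC2A3 transcript also occur in SLC2A14. The stretch of 60 coding bases in which they differ most is shown because it is where reads of the 2 genes can best be separated. It lies at chr12:7930542-7930601 in exon 5 of SLC2A3 and at chr12:7828766-7828825 in exon 6 of SLC2A14, both on the minus strand, and the capitals mark the 7 bases that differ.
SLC2A3: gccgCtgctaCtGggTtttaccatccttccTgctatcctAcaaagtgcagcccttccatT
SLC2A14: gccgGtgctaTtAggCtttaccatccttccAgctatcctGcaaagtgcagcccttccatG

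SLC2A3 stood at 28.0, 15.0, 27.7, 20.9 and 19.97 CPM in AppHu replicates 3, 4, 6, 7 and 8. In AppSAA replicates 4, 5, 6, 7 and 8 it stood at 33.4, 30.3, 44.2, 69.7 and 47.6 CPM. Every AppSAA library lay above every AppHu library, with the gap narrowest between AppSAA 5 and AppHu 3 and the highest value in AppSAA 7. The means were 22.3 ± 5.5 and 45.0 ± 15.6 CPM (SD, n = 5), from 576 to 2124 reads a library. On the log2 scale the fold change was 1.02 (SE 0.23, 95% interval 0.52 to 1.51), with an unadjusted p of 0.000671 and an adjusted p of 0.112 in edgeR. The exact two-sided permutation test over the libraries gave p = 0.00794, the smallest it can give with 5 against 5. In DESeq2 the adjusted p was 0.00179. Over the 22 alternative fits the fold change stayed between 0.80 and 1.22 and the adjusted p between 0.00179 and 0.316. With AppHu 6 and AppSAA 5 both left out, an alternative chosen after seeing the data, the fold change was 1.22 and the adjusted p 0.036 in edgeR. AppSAA 5 was the lowest AppSAA library for SLC2A3, and AppHu 6 lay above its group mean. Leaving both out thus widens the difference by construction and adds no support. With each library's percentage of mouse counts added to the fit, the fold change was 1.10 and the adjusted p 0.316 in edgeR.

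SLC2A14 drew 130 reads over the 10 libraries against 10028 for SLC2A3, or 1.28% of the pair. It had a log2 fold change of 1.58 (SE 0.52, unadjusted p = 0.0096, adjusted p = 0.302, edgeR), from 0.22 ± 0.12 CPM in AppHu to 0.66 ± 0.37 CPM in AppSAA (SD, n = 5), with overlapping groups. Since the 2 transcripts share sequence, reads of one can be counted to the other, and the small SLC2A14 value is uncertain for that reason.

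SLC2A1 encodes GLUT1, the carrier of basal glucose uptake in most cells (chr1:42925353-42958893, minus strand). Its level was 11.5, 8.46, 9.04, 7.36 and 8.46 CPM in AppHu replicates 3, 4, 6, 7 and 8 and 6.41, 5.62, 8.05, 6.33 and 7.57 CPM in AppSAA replicates 4 to 8. The groups overlapped: AppSAA 6 and AppSAA 8 lay above AppHu 7, and AppHu 3 was highest. AppSAA minus AppHu on the log2 scale was -0.40 (SE 0.15, unadjusted p = 0.0186, adjusted p = 0.374, edgeR), and -0.30 without AppHu 3. SLC2A5, which encodes the fructose carrier GLUT5 and is a marker of microglia in brain, was the most abundant of the 4 at 112.3 ± 16.4 CPM in AppHu and 127 ± 14 CPM in AppSAA (SD, n = 5). It had a log2 fold change of 0.18 (SE 0.11, 95% interval -0.05 to 0.42), and of 0.099 without AppHu 7. SLC2A6, which encodes GLUT6, was barely detected, with 3 to 88 reads a library. Its log2 fold change of 1.00 had an SE of 0.61 and depended on single libraries. It was 0.35 without AppSAA 4, which stood at 3.03 CPM, and 1.505 without AppHu 3.

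**Figure D2:**
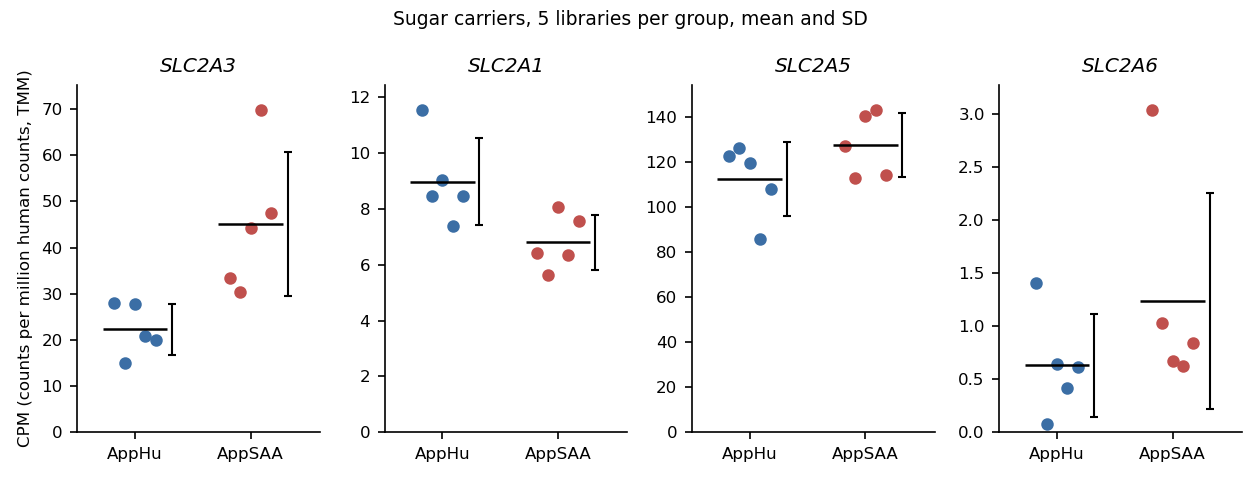
CPM of SLC2A3, SLC2A1, SLC2A5 and SLC2A6 in each library (points), with the group mean (horizontal line) and SD (bar to its right), 5 AppHu and 5 AppSAA libraries, each panel on its own axis from 0. SLC2A3 is the only panel in which the groups are separate, at 15.0 to 28.0 CPM in AppHu and 30.3 to 69.7 CPM in AppSAA.

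To compare carriers with each other, CPM was divided by transcript length in kb, and each carrier was given as a share of the 4 summed. SLC2A5 made up 75.9% ± 4.2 in AppHu and 69.0% ± 4.6 in AppSAA (SD, n = 5), with overlapping groups. SLC2A3 made up 10.5% to 19.0% in the AppHu libraries and 20.3% to 32.9% in the AppSAA libraries. SLC2A1 made up 6.70% to 8.25% in AppHu and 3.39% to 5.21% in AppSAA. The shares of SLC2A3 and of SLC2A1 thus did not overlap between groups, in opposite directions. Shares of 1 total move against each other by construction, and they are given as a description with no test.

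**Figure D3:**
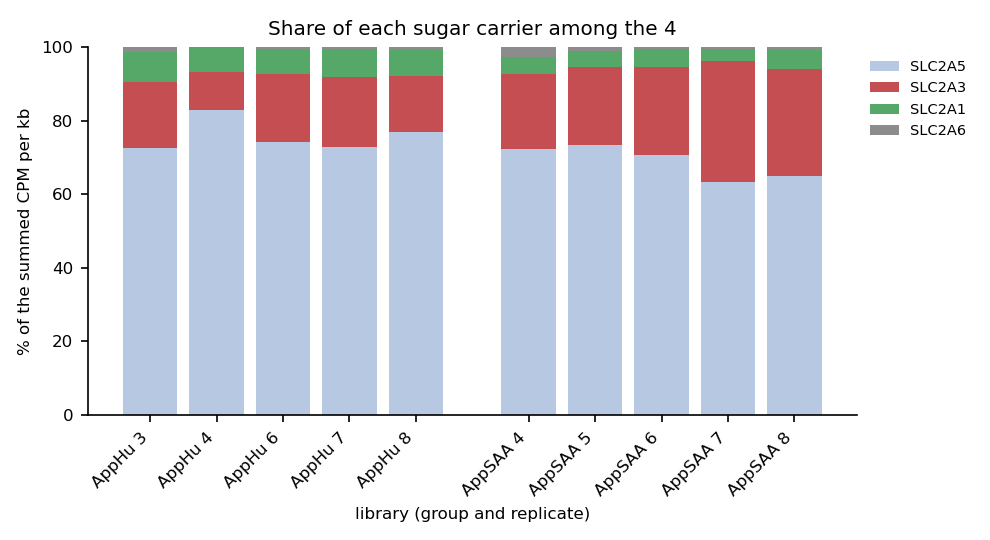
Share of each of the 4 sugar carriers in their summed CPM per kb of transcript, 1 bar per library, AppHu left and AppSAA right. SLC2A5 takes the largest share in every library, and the SLC2A3 segment reaches 32.9% in AppSAA 7 against 10.5% in AppHu 4.

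In the first reactions of glycolysis, from hexokinase to triosephosphate isomerase, 10 genes were measured, and PFKP was the only 1 with an unadjusted p under 0.05 in edgeR. Hexokinase phosphorylates glucose and keeps it in the cell. HK2, the inducible hexokinase, stood at 247 to 292 CPM in the AppHu libraries. In AppSAA replicates 4 to 8 it stood at 337, 138, 305, 323 and 301 CPM, so that 4 of 5 libraries lay above all of AppHu and AppSAA 5 lay far below. HK2 had a log2 fold change of 0.05 (SE 0.19) with all libraries and 0.22 without AppSAA 5 (adjusted p = 0.194, edgeR), not past the test in either fit. HK1, the hexokinase of most tissues, was 62.7 CPM in AppSAA 5 and 107 to 130.2 CPM in the rest of that group. HK1 had a log2 fold change of -0.21 (SE 0.16), and -0.07 without that library. HK3, a hexokinase of myeloid cells, was 13.7 ± 2.4 and 14.0 ± 1.9 CPM (SD, n = 5). GPI, which turns glucose 6-phosphate into fructose 6-phosphate, had a log2 fold change of 0.0055 (SE 0.07, 95% interval -0.14 to 0.15).

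Phosphofructokinase commits sugar to glycolysis and has 3 genes, named for liver (PFKL), muscle (PFKM) and platelet (PFKP). PFKP stood at 5.90, 10.8, 10.8, 7.79 and 7.57 CPM in AppHu replicates 3, 4, 6, 7 and 8 and at 23.8, 12.6, 12.8, 10.8 and 11.04 CPM in AppSAA replicates 4 to 8. AppSAA 4 was far above the rest, and the groups met only at their edges, with AppSAA 7 just below AppHu 4 and AppHu 6. The fold change of PFKP was 0.72 on the log2 scale (SE 0.24, 95% interval 0.21 to 1.24, unadjusted p = 0.0096, adjusted p = 0.302, edgeR), and 0.46 without AppSAA 4 (adjusted p = 0.476). PFKM had a log2 fold change of 0.17 (SE 0.10), with 16.9 ± 1.9 CPM in AppHu and 19.1 ± 1.1 CPM in AppSAA (SD, n = 5). Its unadjusted p was 0.0942 in edgeR and 0.0397 in the exact permutation test. PFKL was 52.6 CPM in AppSAA 5 and 106 to 138 CPM in the other 4 AppSAA libraries. PFKL had a log2 fold change of -0.22 (SE 0.19), -0.05 without AppSAA 5 and -0.34 without AppSAA 7. Per kb of transcript, PFKL made up 82.6% ± 2.0 of the 3 genes in AppHu and 74.3% ± 7.7 in AppSAA, and PFKP 6.5% ± 1.8 and 11.97% ± 4.81 (SD, n = 5), with overlapping groups.

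Aldolase splits fructose 1,6-bisphosphate. ALDOA, the aldolase of most tissues, drew 127 to 214 reads a library, and ALDOC, the brain form, 42 to 100. Of the ALDOA transcript 89.8% is shared with a second protein-coding gene model that overlaps it on the same strand, and how the authors treated reads in such overlaps is not given in the sources used here. The second gene, AC093512.2, drew 1 to 13 reads a library. Whether reads of the shared part were lost to both genes was not tested. The low ALDOA level, 5.59 ± 0.60 CPM in AppHu and 5.48 ± 0.54 CPM in AppSAA (SD, n = 5), is therefore uncertain as a level. TPI1, which interconverts the triose phosphates, was 257 ± 23 and 260.1 ± 17.1 CPM, with a log2 fold change of 0.017 (SE 0.07).

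The second series of reactions, from GAPDH to lactate dehydrogenase, held 8 genes, and 7 of them had a log2 fold change within 0.1 of 0. GAPDH, which oxidises the triose phosphate, had 0.09 (SE 0.08), and 0.038 without AppHu 7. PGK1, which makes the first ATP of the pathway, stood at 342 ± 32 CPM in AppHu and 340.3 ± 12.4 CPM in AppSAA (SD, n = 5), a log2 fold change of -0.0061 (SE 0.07). PGAM1, which moves the phosphate group, had -0.07 (SE 0.08), or -0.028 without AppSAA 8, and 46.1% of its windows of 101 bases also occur in other gene models. ENO1, the main enolase, stood at 373 ± 16 and 372 ± 26 CPM. The log2 fold change of ENO1 was -0.0037 (SE 0.06, 95% interval -0.13 to 0.13), the smallest SE among the 34. ENO2, the enolase of neurons, drew 6 to 23 reads a library. PKM, pyruvate kinase, had a log2 fold change of 0.015 (SE 0.07).

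LDHA, the lactate dehydrogenase form tied to lactate production, stood at 202, 198, 215, 153 and 172 CPM in AppHu replicates 3, 4, 6, 7 and 8 and at 228, 221, 197, 192 and 188 CPM in AppSAA replicates 4 to 8. The groups overlapped, with AppHu 7 and AppHu 8 below all AppSAA libraries. LDHA had a log2 fold change of 0.13 (SE 0.09, 95% interval -0.08 to 0.33), and of 0.062 without AppHu 7. LDHB, the form tied to lactate use, had 0.03 (SE 0.08), and 66.3% of its windows also occur in an overlapping gene model. Per kb, LDHA made up 42.2% ± 1.3 of the 2 genes in AppHu and 43.97% ± 1.56 in AppSAA (SD, n = 5), with overlapping groups. Because LDHB overlaps another gene model, this share is uncertain as a level.

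Fructose 2,6-bisphosphate is the strongest activator of phosphofructokinase and is made and removed by the PFKFB enzymes. PFKFB3, the inducible form, stood at 82.0, 104.7, 44.4, 94.8 and 93.2 CPM in AppHu replicates 3, 4, 6, 7 and 8. In AppSAA replicates 4 to 8 it stood at 90.9, 32.3, 77.4, 114.5 and 83.7 CPM. One library of each group, AppHu 6 and AppSAA 5, was low, and the rest overlapped. PFKFB3 had a log2 fold change of -0.07 (SE 0.29), of 0.12 without AppSAA 5, of -0.23 without AppHu 6, and of -0.04 with both left out. PFKFB2, whose CPM per kb overlapped that of PFKFB3 in AppHu (17.5 to 22.4 and 9.91 to 23.4), had 0.015 (SE 0.08), and PFKFB4 had -0.13 (SE 0.12), from -0.20 to -0.08 with single libraries left out. With the mouse share as a covariate PFKFB4 was -0.27.

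Lactate leaves cells mainly through MCT4, the product of SLC16A3, and passes either way through MCT1, the product of SLC16A1. SLC16A3 was 58.4 to 68.8 CPM in the AppHu libraries. In AppSAA it was 64.9, 80.9, 72.6 and 65.4 CPM in replicates 4, 6, 7 and 8 but 20.6 CPM in AppSAA 5. The log2 fold change was -0.06 (SE 0.26), and 0.16 without AppSAA 5 (adjusted p = 0.487, edgeR). SLC16A1 had a log2 fold change of 0.020 (SE 0.08), at 116 ± 10 CPM in AppHu and 118 ± 13 CPM in AppSAA (SD, n = 5).

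HK1, HK2, PFKL, PFKFB3 and SLC16A3 were thus low in AppSAA 5, with log2 differences from the mean of the other 4 AppSAA libraries of -0.88, -1.20, -1.15, -1.51 and -1.78. These 5 were picked out after their values were seen. In AppHu 6 the corresponding differences from the other 4 AppHu libraries were -0.33 for HK1, 0.10 for HK2, -0.20 for PFKL, -1.08 for PFKFB3 and -0.15 for SLC16A3. ENO2 was also lowest in AppSAA 5 (-1.07), on 6 reads. In the same library 6 of the 9 genes from TPI1 to LDHB had their highest AppSAA value. TPI1 stood at 283 CPM (others 240 to 268), PGK1 at 360 CPM (others 330.0 to 345), PKM at 349 CPM (others 286 to 321) and LDHB at 173 CPM (others 144 to 152). Its total was 27149914 counts, within the range of its group, and its mouse share of 2.95% was too.

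**Figure D4:**
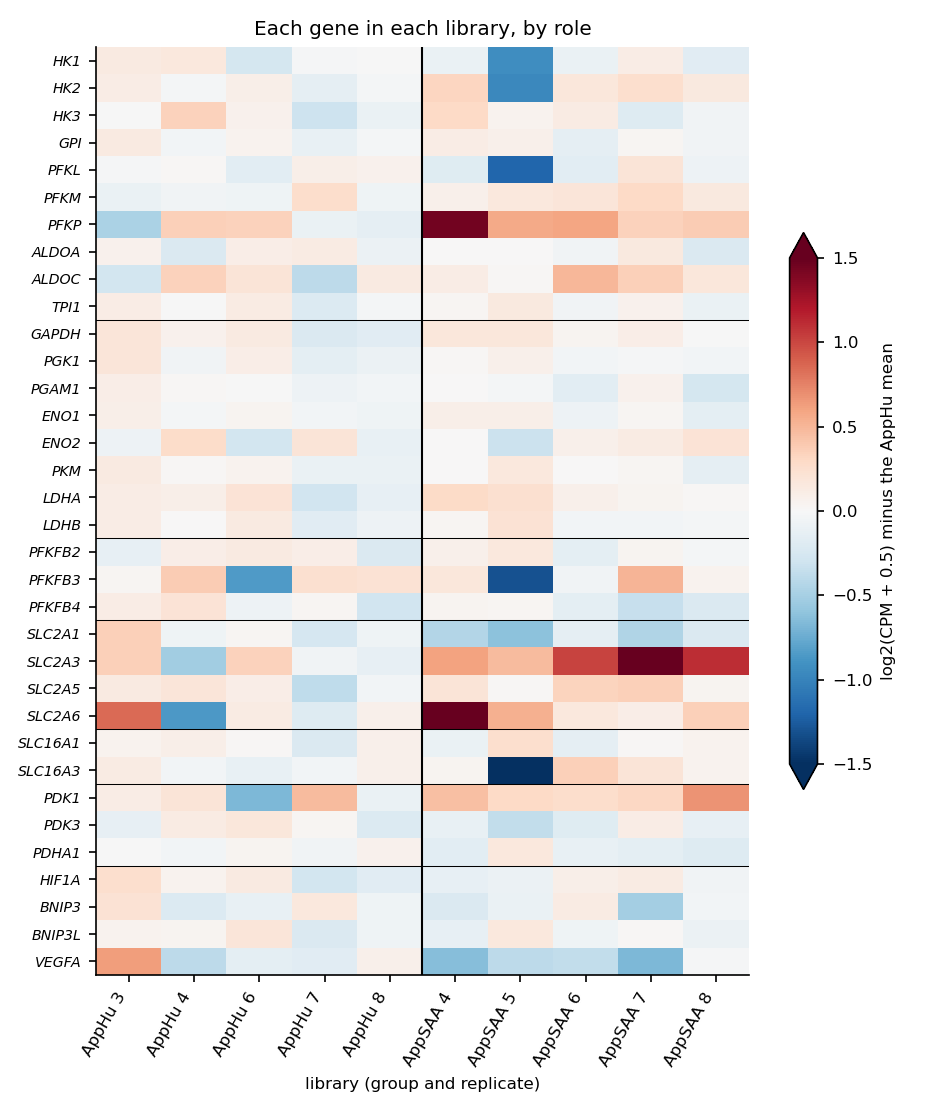
Log2(CPM + 0.5) of each tested gene in each library minus the mean of the 5 AppHu libraries, ordered by role, with horizontal lines between roles and a vertical line between AppHu and AppSAA; colours end at 1.5 in either direction. AppSAA 5 is low for HK1, HK2, PFKL, PFKFB3 and SLC16A3, AppHu 6 for PFKFB3 and PDK1, and SLC2A3 is above 0 in all 5 AppSAA libraries.

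At the pyruvate gate, PDK1 and PDK3 encode kinases that switch pyruvate dehydrogenase off, and PDHA1 its catalytic α subunit. PDK1 stood at 12.99, 13.7, 7.33, 16.8 and 11.1 CPM in AppHu replicates 3, 4, 6, 7 and 8 and at 16.6, 14.9, 14.4, 15.0 and 19.4 CPM in AppSAA replicates 4 to 8. All AppSAA libraries lay above 4 of the 5 AppHu libraries, but AppHu 7 was second highest of the 10. The log2 fold change was 0.37 (SE 0.18, 95% interval -0.03 to 0.77, unadjusted p = 0.0641, adjusted p = 0.550, edgeR), and 0.23 without AppHu 6. PDK3, the more abundant kinase, had -0.13 (SE 0.10), and it was -0.084 without AppSAA 5, -0.20 without AppSAA 7 and 0.05 with the library total as a covariate. PDHA1 had -0.09 (SE 0.07), at 76.1 ± 2.6 and 71.7 ± 7.6 CPM (SD, n = 5), and AppSAA 5 was its highest library at 85.0 CPM. Without that library the value was -0.16 (adjusted p = 0.292, edgeR).

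HIF1A itself did not pass the test, at 275 ± 41 CPM in AppHu and 271 ± 21 CPM in AppSAA (SD, n = 5). Its log2 fold change was -0.020 (SE 0.10, 95% interval -0.23 to 0.19). BNIP3 and BNIP3L, which tag mitochondria for removal, had -0.15 (SE 0.15) and -0.020 (SE 0.08), the first ranging from -0.23 to -0.07 as single libraries were left out. With the library total as a covariate BNIP3 was -0.39. VEGFA, the vascular growth factor, was at 2.52, 0.99, 1.26, 1.24 and 1.56 CPM in AppHu replicates 3, 4, 6, 7 and 8. In AppSAA replicates 4 to 8 it was at 0.76, 0.99, 1.01, 0.72 and 1.43 CPM. The groups overlapped, with AppHu 3 highest. The log2 fold change was -0.62 (SE 0.31, 95% interval -1.28 to 0.05, unadjusted p = 0.0661, adjusted p = 0.554, edgeR), and -0.36 without AppHu 3, on 22 to 70 reads a library. EGLN3, a prolyl hydroxylase that marks HIF-1α for breakdown and is itself a HIF target, drew 1 read in 1 AppHu library, and 4 and 12 reads in AppSAA 6 and AppSAA 8, with 0 in the other 7. It was too low to test.

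The promoters of these genes were searched for ACGTG, the core of the site HIF binds, on both strands, so that CACGT on the printed strand counts as a match. The 6-base palindrome CACGTG, the E-box bound by other factors, holds a match on each strand. RefSeq promoter entries of 300 bases (250 before to 50 after a start, GRCh38.p14) were matched by symbol for 30 members, 57 entries in all. The letters were present in 20 of the 57 entries (35.1%), of 16 genes, against 7518 of 35116 promoters in the table (21.4%). Entries of the same gene can overlap and hold the same site, as some of PFKM do, so the entries are not independent. No background rate per gene was counted. Some entries of LDHA, SLC16A3 and PDK1 held no match. PFKFB2, SLC2A3, SLC16A1, BNIP3L and VEGFA had no entry. The windows below, 5′ to 3′ on the strand of the gene, hold the first match in a promoter of 6 members, chosen to span the pathway from hexokinase to BNIP3, and the capitals mark the matches. They lie at chr2:74834951-74835010 (HK2, plus strand), chrX:78104021-78104080 (PGK1, plus), chr11:18394353-18394412 (LDHA, plus), chr17:82228949-82229016 (SLC16A3, plus), chr2:172556048-172556111 (PDK1, plus) and chr10:131982023-131982082 (BNIP3, minus).
HK2: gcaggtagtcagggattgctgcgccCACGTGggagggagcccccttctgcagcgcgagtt
PGK1: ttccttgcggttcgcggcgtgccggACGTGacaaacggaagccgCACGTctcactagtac
LDHA: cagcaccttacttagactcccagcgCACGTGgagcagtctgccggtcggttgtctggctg
SLC16A3: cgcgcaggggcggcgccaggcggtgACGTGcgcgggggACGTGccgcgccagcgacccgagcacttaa
PDK1: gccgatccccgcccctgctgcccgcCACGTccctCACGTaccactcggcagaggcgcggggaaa
BNIP3: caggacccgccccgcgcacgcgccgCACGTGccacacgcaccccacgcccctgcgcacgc

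The log2 fold changes of these 6 genes were 0.05 for HK2, -0.0061 for PGK1, 0.13 for LDHA, -0.06 for SLC16A3, 0.37 for PDK1 and -0.15 for BNIP3, with overlapping CPM between groups for each. A match of 5 letters is a description of the window and does not show that HIF-1 binds there.

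The levels of the members spanned several orders of magnitude when compared per kb of transcript. ENO1 was highest in AppHu at 209 ± 9 CPM per kb, followed by TPI1 at 190.3 ± 17.0 and GAPDH at 180 ± 22 (SD, n = 5). The AppHu ranges of TPI1 and GAPDH overlapped each other, and both reached into that of ENO1. PKM followed at 127 to 149 CPM per kb, below every GAPDH value. LDHB (101 to 126) lay below PKM and LDHA (68.4 to 95.9) below LDHB, each without overlap. PDK3, PGK1 and HIF1A followed at 78.1, 71.0 and 69.7 CPM per kb and overlapped. The PDK3 value used a transcript of 1741 bases, whereas all exons of the gene cover 17456, so its place is uncertain. Exons shared with other gene models cover 76.5% of the LDHB transcript and 32.8% of the GAPDH transcript. The places of LDHB and GAPDH are uncertain as levels too, and so is that of PGAM1, which shares windows with other models. Of the early enzymes besides TPI1, HK2 stood at 48.2, PFKL at 41.6, HK1 at 33.6 and GPI at 20.1 CPM per kb. The lowest tested members were VEGFA, SLC2A6 and ENO2, each with an AppHu mean under 0.5 CPM per kb. SLC2A3 stood between PGAM1 and PFKM in AppHu at 5.82 ± 1.45 CPM per kb, and at 11.8 ± 4.1 CPM per kb in AppSAA (SD, n = 5).

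**Figure D5:**
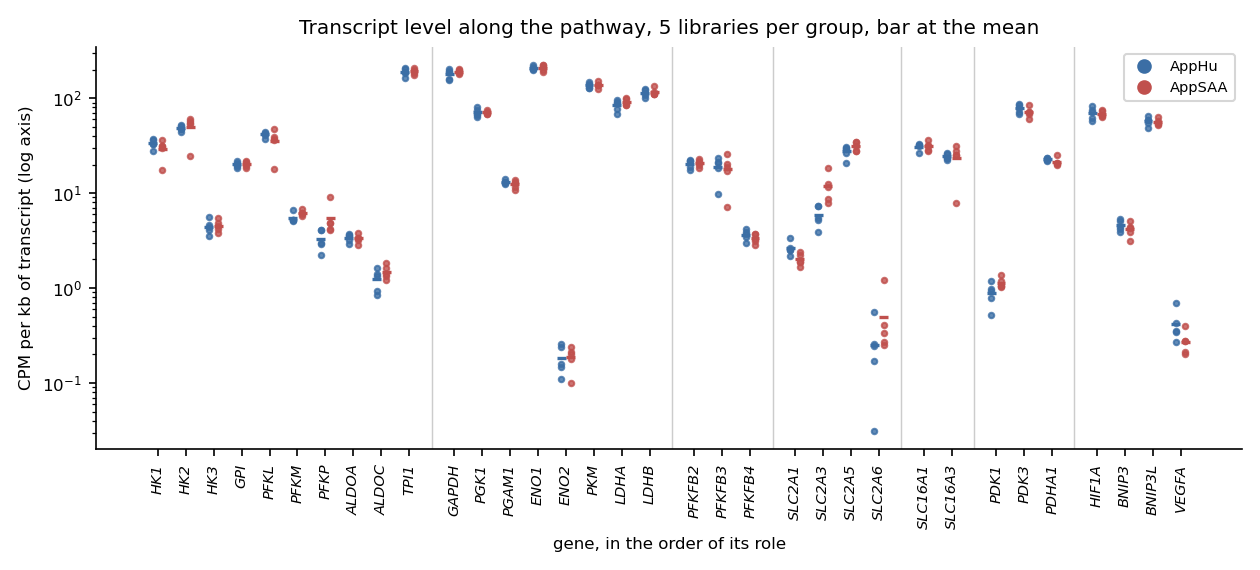
CPM per kb of transcript, on a log axis, of 34 members in the order of their role, with each library as a point and the group mean as a bar, AppHu in blue and AppSAA in red. The group means of ENO1, TPI1 and GAPDH lie near 200 and those of ENO2 and SLC2A6 under 0.5, and the points of the 2 groups overlap for every enzyme.

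Genes around the pathway were counted in 5 wider lists of 88 genes, of which 0 passed the test in edgeR and 0 in DESeq2 in any list. At an unadjusted p under 0.05 stood 1 gene higher and 1 lower of 21 tested further glycolysis and pyruvate genes, 1 higher of 10 further sugar and monocarboxylate carriers, 0 of 12 regulators of the HIF pathway, 1 higher of 18 further HIF-1 targets, and 0 of 7 genes of the pentose phosphate pathway, against the 9.8% of all genes given above. The 2 genes of smallest p in each list were named by rule. GPD2, which passes electrons of glycerol 3-phosphate to mitochondria, had a log2 fold change of 0.25 (SE 0.10, adjusted p = 0.418), and PDP1, the phosphatase that reopens the pyruvate gate, had -0.31 (SE 0.14, adjusted p = 0.469). Besides SLC2A14, the carrier gene SLC2A8 had -0.19 (SE 0.10). Among HIF regulators, the chaperone gene HSP90AB1 had 0.13 (SE 0.06) and CITED2, which competes with HIF-1 for its coactivator, 0.32 (SE 0.18). Among further targets, ADM, which encodes the vessel-dilating peptide adrenomedullin, had 0.69 (SE 0.28, adjusted p = 0.434), 0.40 without AppSAA 7, and MXI1, a MYC antagonist, -0.32 (SE 0.15). TALDO1 and TKT of the pentose phosphate pathway had -0.12 (SE 0.07) and -0.14 (SE 0.08).

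Since the reads were aligned to both genomes together, the counts of the mouse counterparts can be set beside the human ones. Host RNA in the sorted cells and reads assigned to the wrong species cannot be told apart in these counts. For most abundant members the mouse gene drew a small part of the pair: 0.597% for HK2, 0.742% for SLC2A3, 0.792% for PGK1, 4.14% for LDHA and 4.87% for ENO1, over the 10 libraries. For others the mouse gene drew more reads than the human one, with 96.5% of the pair for ALDOC, 84.7% for ALDOA, 72.5% for ENO2, 70.4% for VEGFA and 55.4% for SLC2A1. The ALDOA share is uncertain, since the human ALDOA gene overlaps another human gene model. For PFKP the mouse share of the pair was 43.8% in AppHu and 36.2% in AppSAA. Their part in the human values was not tested.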

How the data were processed

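Bulk RNA-seq of 10 libraries (5 AppHu, 5 AppSAA) was used. The authors made full-length cDNA (SMART-Seq), sequenced 101-base single reads, aligned them with STAR 2.7.11a to a combined human (GRCh38) and mouse (mm10) reference and counted genes with featureCounts 2.0.1; the deposited values are raw counts per gene. The annotation release, strand setting and treatment of multi-mapping or overlapping reads are not given in the sources used here. Groups came from the sample titles. Human rows that reached 10 counts in 6 or more libraries were kept (15455 genes), scaled by TMM and tested with edgeR 4.0.16 (glmQLFit, glmQLFTest, R 4.3.3), with Benjamini-Hochberg adjustment over all tested genes and a threshold of 0.05. This differs from the study, which used DESeq2; DESeq2 1.42.0 and limma 3.58.1 (voom) served as alternatives. Single genes were also tested by exact two-sided permutation on log2(CPM + 0.5) over 252 arrangements. Unadjusted p-values are those of edgeR unless the permutation test is named. CPM per kb used the length of the MANE Select transcript (GENCODE 44). Intervals are 95%. The members and lists were chosen with earlier results of these data known. All members were named, and 2 genes of smallest p in each wider list. A chi-square test of counts within each group found no duplicate library. Same-numbered libraries are different mice, so the number entered as a block only in an alternative fit. That fit leaves AppHu 3 and AppSAA 5, whose numbers occur in 1 group only, out of the contrast.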

Additional observations from a re-analysis of the deposited data

Results flagged for a closer look

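In each group of 5 libraries the highest and lowest CPM of each tested member were compared with the rest by Dixon's test at the 95% level. Of 68 groups 8 held a library set apart, where chance gives about 1 in 20. AppSAA 5 was set apart in 4: it was lowest for HK2 at 138 CPM (others 301 to 337) and for SLC16A3 at 20.6 CPM (others 64.9 to 80.9), and highest for LDHB at 173 CPM (others 144 to 152) and for PDHA1 at 85.0 CPM (others 66.5 to 70.3). AppSAA 4 was highest for PFKP at 23.8 CPM (others 10.8 to 12.8) and for SLC2A6 at 3.03 CPM (others 0.62 to 1.03). AppHu 7 was highest for PFKM at 20.4 CPM (others 15.7 to 16.2) and lowest for SLC16A1 at 99.3 CPM (others 117 to 122). SLC2A3 was in none of these groups.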

How the results depend on the processing

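The members were fitted under 22 alternatives, 1 of them (AppHu 6 and AppSAA 5 both left out) chosen after seeing the data. SLC2A3 was the only member to pass the test in any, with DESeq2 (log2 fold change 1.01), with the replicate block (1.21) and with AppHu 6 and AppSAA 5 both left out (1.22), so the number of members called was 1 in those 3 and 0 in the other 19, each leave-one-out fit included (0 to 0). Replicate 3 occurs only in AppHu and replicate 5 only in AppSAA, so the block fit compares the 4 shared numbers. AppHu 3 and AppSAA 5 drop out of its contrast, and its call cannot be put down to the block alone. Over all human genes the number called was 12 in the reported fit and with RLE factors, filterByExpr or 10 counts in 5 libraries, 18 with upper-quartile factors, 215 with DESeq2, 52 with limma-voom and sample quality weights, 19 with glmQLFit legacy off, 32 with no filter, 1 with the library total and 5 with the mouse share as a covariate, 59 with the replicate block, 64 with AppHu 6 and AppSAA 5 both left out, and 2 to 34 when 1 library was left out, lowest without AppHu 3, AppHu 7 or AppSAA 8 and highest without AppSAA 5. The count of 59 cannot be put down to the block alone either, since AppHu 3 and AppSAA 5 drop out of that contrast. The median log2 fold change of the members lay between -0.023 and 0.030 under all 22, less than the spread between libraries of 0.07. Of 748 pairs of a member and an alternative 75 changed sign, in 17 members whose reported value was at most 0.13 from 0 and not past the test, and the cause was not tested. In log2 fold change, with limma-voom and sample quality weights GPI was -0.015, TPI1 was -0.0074, PKM was -0.018, PFKFB2 was -0.0083, SLC16A1 was -0.018, SLC16A3 was 0.0067. With the library total as a covariate GPI was -0.0048, PKM was -0.026, PFKFB3 was 0.094, PDK3 was 0.054. With the mouse share as a covariate HK3 was -0.021, GPI was -0.030, ENO2 was -0.085, PKM was -0.024, PFKFB2 was -0.072, BNIP3L was 0.0065. With no filter GPI was -0.0033. With upper-quartile factors PGK1 was 0.011, ENO1 was 0.013. With AppHu 6 and AppSAA 5 both left out GPI was -0.0034, PKM was -0.015, SLC16A1 was -0.045, SLC16A3 was 0.13, HIF1A was 0.028. With the replicate block, and so with AppHu 3 and AppSAA 5 out of the contrast, PGK1 was 0.023, PFKFB2 was -0.045, PFKFB3 was 0.17, SLC16A1 was -0.029, SLC16A3 was 0.19, HIF1A was 0.073. Over the fits that left out 1 library the ranges were HK2 -0.023 to 0.22, HK3 -0.036 to 0.14, GPI -0.022 to 0.040, ALDOA -0.084 to 0.022, TPI1 -0.031 to 0.047, PGK1 -0.042 to 0.039, ENO1 -0.031 to 0.029, ENO2 -0.10 to 0.20, PKM -0.026 to 0.050, LDHB -0.027 to 0.065, PFKFB2 -0.036 to 0.056, PFKFB3 -0.24 to 0.12, SLC16A1 -0.047 to 0.059, SLC16A3 -0.18 to 0.16, HIF1A -0.083 to 0.045, BNIP3L -0.072 to 0.028.

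The replicate numbers recur in both groups, but same-numbered libraries correlated by 0.06 to 0.31 in their deviations from the group means, with 2 of 4 pairs over 0.1, and 3 of 4 AppHu libraries were closest to their own number, a hint from the data and not from the design. Pairs with different numbers correlated by -0.38 to 0.44, the highest being AppHu 6 with AppSAA 5. Adding counts of pseudogenes named after a member could not be run, as no such row was present. Depth limits ENO2, SLC2A6, VEGFA, ALDOC and EGLN3, with 0 to 100 reads a library. Shared sequence limits ALDOA, LDHB, PGAM1, PDHA1 and GAPDH, of which 19.2% to 89.2% of the windows of 101 bases also occur in other gene models.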
